A study of Mus musculus with 12 samples.

Results

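The Bcl2 family sets whether a cell keeps its mitochondria intact or starts apoptosis, and 10 of its genes were followed in mouse intra-aortic haematopoietic clusters. The genes are the pro-survival Bcl2, Bcl2l1 and Mcl1, the pore-forming effectors Bax and Bak1, and the BH3-only death genes Bcl2l11, Bid, Bad, Bbc3 and Pmaip1. They were chosen by symbol and not by their values, though earlier results of these data were known. All 10 were found, each on 1 row, in gene tables of 24138 rows. These clusters bud from the lining of the embryo's dorsal aorta, in the region called AGM, and the first haematopoietic stem cells arise among their cells. RNA was sequenced in 12 samples, 3 in each of 4 groups, from C57BL/6 embryos at E10.5 or E11.5. Cells of all groups were sorted as negative for SSEA-1 and positive for CD31 and CD117. The 2 G1 groups, at E10.5 and at E11.5, were mKO2-positive cells from Fucci Red animals, and the 2 S/G2/M groups were mAG-positive cells from Fucci Green animals. Fucci reporters are fluorescent proteins fused to pieces of cell cycle proteins, so that a cell's colour follows its phase. Phase and reporter line therefore cannot be told apart, and every group carried a reporter. What promoter drives the reporters was not given in the sources used here. Nothing in the labels tells whether a group's 3 samples were taken from separate litters or pools, so p-values may measure a spread that is technical.

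Pro-survival proteins of this family hold the effectors Bax and Bak1 in check. BH3-only proteins bind the pro-survival proteins, and some of them also bind and activate the effectors, which then open the outer mitochondrial membrane and let cytochrome c out to start the caspases. Among blood cells, Mcl1, a protein of short life, is known to be needed by haematopoietic stem cells, Bcl2l1 (Bcl-xL) by maturing red cells, and Bcl2l11 (Bim) for the death of cells that lose their growth factors.

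Each deposited table gives 1 value per group in FPKM, fragments scaled to the gene's length and to the mapped total, so levels of different genes can be set side by side. No value of a single sample is among the files used here, so no SD can be given, and the read depth is unknown. A gene was called where the q-value of the Cuffdiff test in the authors' deposited tables was under 0.05. An approximate 95% interval of each fold was worked back from the deposited p-value. The deposited test statistics, read as normal scores, would give wider ones. The same group's value for a member differed by at most 1.06-fold between tables, for Bbc3, and levels below come from the phase tables.

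RNA of both positive gate genes was found in every group. Pecam1 (CD31) stood at 39.8 FPKM in E10.5 G1, 30.2 in E10.5 S/G2/M, 111 in E11.5 G1 and 69.9 in E11.5 S/G2/M, and Kit (CD117) at 15.1, 12.7, 16.9 and 28.9. Genes of other cell types differed between the groups. The summed level of 15 macrophage markers, none of them at 0, was 374, 228, 2570 and 756 FPKM in that order of groups, led by C1qb and C1qc. The sum of 9 erythroid markers was 15399, 19580, 12218 and 3115 FPKM, led by the embryonic globins Hba-x and Hbb-y. Neural markers, 8 genes led by Tubb3 and Rtn1, summed to 400.1, 73.8, 134 and 64.5 FPKM, and 9 mesenchymal markers, led by Ptn, to 237, 254, 63.1 and 58.2. Of 7 granulocyte markers, 4, 3, 2 and 3 were listed at 0 in that order of groups, Ctsg in every group. Their sum was 22.3, 63.3, 141 and 406 FPKM. In such bulk samples, fewer cells of a type and less RNA per cell cannot be told apart.

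The order of the members' levels was much the same in the 4 groups. Mcl1 and Bak1 held the first and second place in each, in either order, Bax the third, Bad the fourth, Pmaip1 the ninth and Bbc3 the last. Bcl2, Bcl2l1, Bcl2l11 and Bid shared the places between and traded them from group to group. With 1 value per group, which neighbours in that order differ beyond the spread of samples could not be judged.

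**Figure D1:**
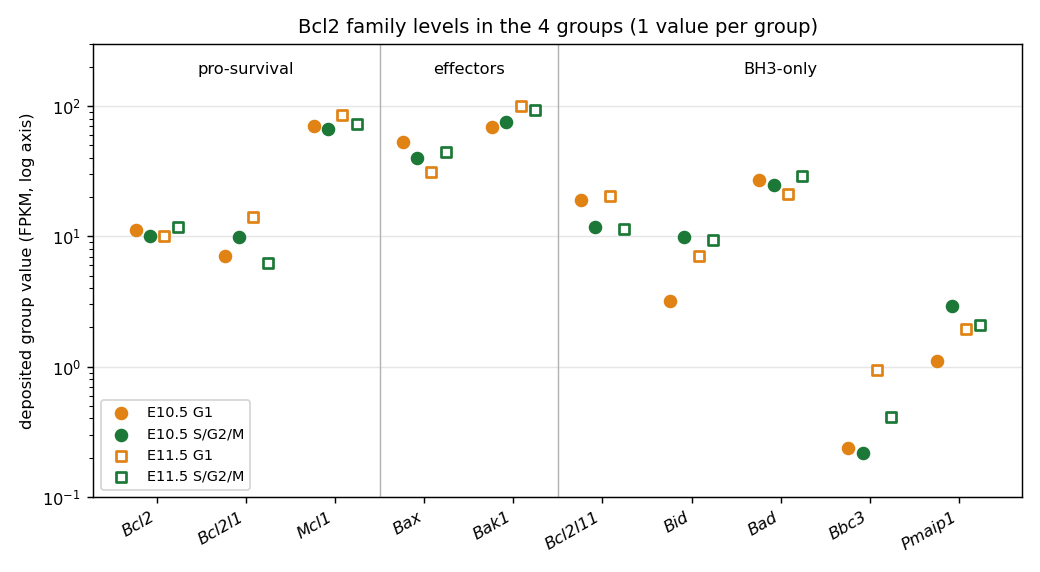
Deposited FPKM of the 10 genes on a log axis, arranged by role, with 1 point per group: filled circles for E10.5, open squares for E11.5, orange for G1 and green for S/G2/M. The 4 points of Mcl1, Bak1, Bcl2 and Bad lie close together, while those of Bid run from 3.19 to 9.92 and those of Bbc3 from 0.217 to 0.941.

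No member was called in any of the 4 comparisons. At E10.5, S/G2/M against G1, 0 of the 9 members tested had a q-value under 0.05 in the authors' deposited Cuffdiff table, and 1, Bid, reached an unadjusted p under 0.05. Over all 12984 genes tested in that table, 0.655% were called, 0.193% higher and 0.462% lower in S/G2/M, and 6.69% reached an unadjusted p under 0.05. At E11.5, 0 of 9 members were called and 0 reached an unadjusted p under 0.05 by Cuffdiff. The background there was 0.701% of 12414 genes called, 0.137% higher and 0.564% lower in S/G2/M, with 8.27% at an unadjusted p under 0.05. With so few genes called between the phases, a count of 0 among 9 is near the background.

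The age comparisons called more genes, and again no member. In G1, 0 of 9 members were called and 0 reached an unadjusted p under 0.05 by Cuffdiff, while of 12953 genes 4.45% were called, 3.0% higher and 1.45% lower at E11.5, and 15.4% had an unadjusted p under 0.05. In S/G2/M, the members again gave 0 of 9 on both counts, while of 12768 genes 4.07% were called, 2.14% higher and 1.93% lower at E11.5, and 13.9% had an unadjusted p under 0.05. At such rates fewer than 1 of 9 genes would be called, so the counts of called members do not set the family apart. For the unadjusted p, the members' 0 of 9 was not tested against the shares of 15.4% and 13.9%.

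Among the pro-survival members, Mcl1 was by far the most abundant and Bcl2l1 the most variable. The deposited level of Mcl1 (mm10 chr3:95658721-95663178, plus strand) was 70.4 FPKM in E10.5 G1, 67.2 in E10.5 S/G2/M, 84.9 in E11.5 G1 and 72.7 in E11.5 S/G2/M. The highest of these was 1.26 times the lowest, and Mcl1 stood between the 95.7th and the 96.7th percentile of all genes in each group. Its 4 folds, on the log2 scale, were -0.07 for S/G2/M against G1 at E10.5, -0.22 at E11.5, 0.35 for E11.5 against E10.5 in G1 and 0.18 in S/G2/M. Its intervals were the narrowest of the family in each comparison, and ran from 0.656-fold to 1.39-fold for the phases at E10.5.

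Bcl2, the founding member (chr1:106538178-106714290, minus strand), had deposited levels of 11.2, 9.99, 10.0 and 11.9 FPKM in the same order of groups. It was the flattest gene of the family, with 1.19-fold between its highest and lowest group. It shares 6.09% of its exonic bases with D630008O14Rik on the opposite strand. Its smallest p-value in the authors' deposited tables was 0.430 (q = 0.805), for age in S/G2/M.

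Bcl2l1, which encodes Bcl-xL (chr2:152754173-152831728 as deposited, minus strand), went from 7.10 FPKM in E10.5 G1 to 9.87 in E10.5 S/G2/M, 14.1 in E11.5 G1 and 6.30 in E11.5 S/G2/M. The E11.5 G1 value stood above the other 3. At E11.5 the G1 level was 2.24 times the S/G2/M level, a log2 change of -1.17 with an approximate interval of 0.181-fold to 1.10-fold, and p = 0.0795 (q = 0.691) in the authors' deposited table. With age in G1 the level went from 6.79 to 14.3 FPKM in the age table, 2.10-fold with an interval of 0.940-fold to 4.70-fold. The authors' deposited table gives p = 0.0706 and q = 0.387 for that difference. At E10.5 the phase difference had the other sign, 0.48 on the log2 scale, with p = 0.436 (q = 0.970) in the authors' deposited table. None of these passed. At E11.5, 7 of 15 macrophage and 3 of 9 erythroid markers fell in the S/G2/M group. With age in G1, 12 of 15 macrophage markers rose. Of 9 erythroid markers 0 were called there, and their sum went from 15399 to 12218 FPKM. The part of these markers in the Bcl2l1 values was not tested. The deposited locus of Bcl2l1 also spans Cox4i2, a cytochrome oxidase subunit gene with no exon in common, which was listed at 2.71, 13.2, 8.57 and 12.0 FPKM.

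Both effectors were abundant, and their age differences in G1 had opposite signs, though neither passed. Bak1 (chr17:27018035-27036378 as deposited, minus strand) stood at 68.9 FPKM in E10.5 G1, 75.4 in E10.5 S/G2/M, 99.9 in E11.5 G1 and 94.1 in E11.5 S/G2/M. Both E11.5 values lay above both E10.5 values. In the age tables this was 1.53-fold in G1 (interval 0.924-fold to 2.54-fold) and 1.32-fold in S/G2/M (0.864-fold to 2.01-fold). The authors' deposited tables give p = 0.0982 (q = 0.457) and p = 0.199 (q = 0.661) for these, so neither passed. Pecam1 and 12 of 15 macrophage markers rose with age in G1 as well, and their part in the Bak1 values was not tested. Bak1 shares 25.5% of its exonic bases with Ggnbp1 on the opposite strand. Whether the counting used strand was not given in the sources used here. Ggnbp1 itself was listed at 0 in both G1 groups and at 0.677 and 0.181 FPKM in S/G2/M.

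Bax (chr7:45461695-45466898, minus strand) was at 53.2 FPKM in E10.5 G1, 40.0 in E10.5 S/G2/M, 31.4 in E11.5 G1 and 44.3 in E11.5 S/G2/M. Its highest and lowest values were thus those of the 2 G1 groups. It shares 12.2% of its exonic bases with Gm45808 on the same strand. The age difference in G1 was -0.68 on the log2 scale, 1.60 times higher at E10.5, with an interval of 0.314-fold to 1.25-fold and p = 0.183 (q = 0.579) in the authors' deposited table. Mesenchymal markers were lower with age in G1 for 9 of 9 genes (5 called) and neural markers for 8 of 8 (3 called), and their part in the Bax values was not tested. In S/G2/M the age difference of Bax was 0.23, with q = 0.893 in the authors' deposited table. There mesenchymal markers were lower with age for 9 of 9 genes (5 called) and neural markers for 4 of 8 (0 called). The level of Bak1 was 1.30 times that of Bax in E10.5 G1, 1.89 in E10.5 S/G2/M, 3.18 in E11.5 G1 and 2.12 in E11.5 S/G2/M. This ratio of 2 levels carries no error, and neither gene's own change passed.

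Of the BH3-only genes, Bid and Bcl2l11 had the smallest p-values between the phases at E10.5, with differences of opposite sign, though neither passed. For that reason the sequences upstream of these 2 genes are shown. Each is the 250 bases before the start site from RefSeq on GRCm38.p6, read 5′ to 3′ on the gene's strand. The FOXO motif GTAAACA is in capitals, since FOXO factors are known to bind near Bcl2l11. The window of Bcl2l11 is chr2:128125788-128126037 (plus strand) and that of Bid is chr6:120916825-120917074 (minus strand).
Bcl2l11: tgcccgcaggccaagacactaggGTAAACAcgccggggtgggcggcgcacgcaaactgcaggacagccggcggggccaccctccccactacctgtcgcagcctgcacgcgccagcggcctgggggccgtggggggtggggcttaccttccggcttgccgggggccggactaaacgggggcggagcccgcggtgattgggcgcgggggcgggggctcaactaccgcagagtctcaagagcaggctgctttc
Bid: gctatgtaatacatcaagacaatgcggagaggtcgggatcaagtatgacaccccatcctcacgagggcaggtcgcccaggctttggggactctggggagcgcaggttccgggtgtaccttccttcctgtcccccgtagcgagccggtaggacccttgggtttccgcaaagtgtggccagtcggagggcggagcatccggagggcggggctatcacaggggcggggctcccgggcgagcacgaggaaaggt
The Bcl2l11 window is 72% G and C and holds the motif 227 bases before the start site. The Bid window is 63.6% G and C, against a median of 52.4% over 32851 windows of all genes. For the motifs, windows of 300 bases were searched on both strands, and 9 of the 10 members had such windows, 15 in all. GTAAACA was found in 3.65% of all windows and, among the members, in those of Bcl2l11 and Bbc3. The E2F motif, as TTTGGCGC, TTTCCCGC or TTTCGCGC, was found in 1.84% of windows and, among the members, in 1 of Bcl2l1. The CHR motif of mitotic genes, TTTGAA, was found in 17.9% of windows and, among the members, in those of Bcl2, Mcl1 and Bax. A match is a description of these letters only.

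Bid encodes a protein that links death receptors to mitochondria once caspase 8 has cut it (gene at chr6:120893119-120916820, minus strand). It was at 3.19 FPKM in E10.5 G1, 9.92 in E10.5 S/G2/M, 7.06 in E11.5 G1 and 9.38 in E11.5 S/G2/M. The E10.5 G1 group was the low one, and the other 3 lay between 7.06 and 9.92. The E10.5 phase difference was 3.10-fold, with an interval of 1.23-fold to 7.86-fold, and p = 0.0168 in the authors' deposited table. That was the only unadjusted p-value under 0.05 among the members in the 4 comparisons. A smaller p was deposited for 3.14% of all genes tested, and with q = 0.532 in the authors' deposited table Bid was not called. Among genes of like level, within 1.5 times of Bid, the smallest called fold was 3.46. The deposited test statistic of Bid, read as a normal score, would give p = 0.181 in place of the p of the authors' deposited table, so this interval may be too narrow. At E11.5 the phase difference of Bid was 1.33-fold, with q = 0.9001 in the authors' deposited table. With age, Bid differed by 1.22 on the log2 scale in G1 (p = 0.196, q = 0.594) and by -0.01 in S/G2/M (q = 0.998) in the authors' deposited tables. Bid shares 17.7% of its exonic bases with Bcl2l13 on the opposite strand, which was listed at 14.6, 17.1, 8.46 and 11.9 FPKM. Reads of the 2 genes cannot be told apart there unless strand was used. The E10.5 G1 group was also the one with the highest neural marker sum, and between the E10.5 phases 6 of those 8 markers were called lower in S/G2/M. Their part in the Bid difference was not tested.

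Bcl2l11 (chr2:128126038-128162547, plus strand) had nearly the same phase difference at both ages. It stood at 18.9 FPKM in E10.5 G1 and 20.3 in E11.5 G1, and at 11.8 in E10.5 S/G2/M and 11.3 in E11.5 S/G2/M. Both G1 values lay above both S/G2/M values. The G1 level was 1.59 times the S/G2/M level at E10.5, with an interval of the S/G2/M to G1 fold from 0.380 to 1.03. At E11.5 the G1 level was 1.79 times the S/G2/M level, with an interval of the same fold from 0.288 to 1.08. The macrophage and neural marker sums were also lower in S/G2/M at both ages, and the erythroid sum at E11.5. Between the E10.5 phases 6 of 8 neural markers were called lower. Their part in the Bcl2l11 values was not tested. The authors' deposited tables give p = 0.0673 (q = 0.786) and p = 0.0832 (q = 0.703), so neither difference passed. With age, its log2 change was 0.19 in G1 (interval 0.645-fold to 2.01-fold) and 0.01 in S/G2/M (0.572-fold to 1.78-fold).

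Bad, a BH3-only gene whose protein is held inactive by growth factor signalling (chr19:6938070-6951905 as deposited, plus strand), was the most abundant of its class. It was listed at 27.2, 24.9, 21.1 and 29.2 FPKM in the same order of groups, and its q-values in the authors' deposited tables were 0.991, 0.896, 0.889 and 0.897 for the 4 comparisons. It shares 20.5% of its exonic bases with Gpr137 on the opposite strand, listed at 1.77 to 4.87 FPKM.

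Pmaip1 and Bbc3, known as Noxa and Puma and both targets of p53, were the rarest members. Pmaip1 (chr18:66458604-66465558, plus strand) was at 1.10 FPKM in E10.5 G1, 2.92 in E10.5 S/G2/M, 1.94 in E11.5 G1 and 2.09 in E11.5 S/G2/M. The 2.66-fold phase difference at E10.5 had an interval of 0.724-fold to 9.81-fold and p = 0.141 (q = 0.902) in the authors' deposited table. Bbc3 (chr7:16309583-16318334, plus strand) was at 0.235, 0.217, 0.941 and 0.410 FPKM, under 1 FPKM in every group, and the authors tested it in none of the 4 comparisons. Its E11.5 G1 value stood above the other 3, and its highest group was 4.33 times its lowest, the widest range among the members. That order of groups, with E11.5 G1 first and E11.5 S/G2/M second, was also the order of the macrophage marker sum, whose part in the Bbc3 values was not tested.

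The members' median log2 fold change lay near that of all genes for the phases, at -0.07 against -0.04 at E10.5 and at 0.11 against -0.06 at E11.5. With age it was 0.35 in G1 against 0.02 over all genes, and 0.18 in S/G2/M against 0.03. Of the 9 members tested, 4 were higher in S/G2/M at E10.5, 5 at E11.5, and 6 were higher at E11.5 in each age comparison. Called folds were large. Where any gene of like level to a member was called, the smallest called folds ran from 2.26 to 3.46 for the phases at E10.5 and from 2.47 to 12.3 at E11.5. For age they ran from 2.10 to 4.18 in G1 and from 1.95 to 2.88 in S/G2/M. No gene of like level with a smaller fold was called, and for Pmaip1 at E10.5 no gene of like level was called at all.

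**Figure D2:**
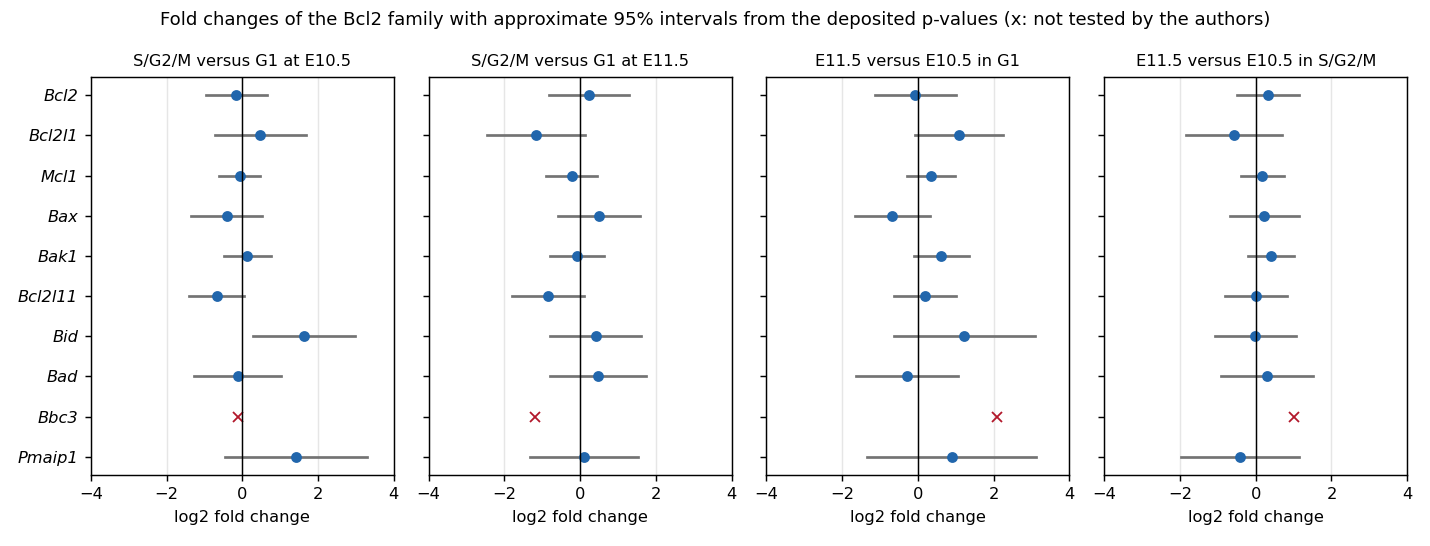
Log2 fold change of each gene in the 4 comparisons (positive where the level was higher in S/G2/M or at E11.5), with approximate 95% intervals worked back from the deposited p-values; crosses mark Bbc3, which the authors did not test. Only the interval of Bid at E10.5, from 1.23-fold to 7.86-fold, leaves out no change.

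**Figure D3:**
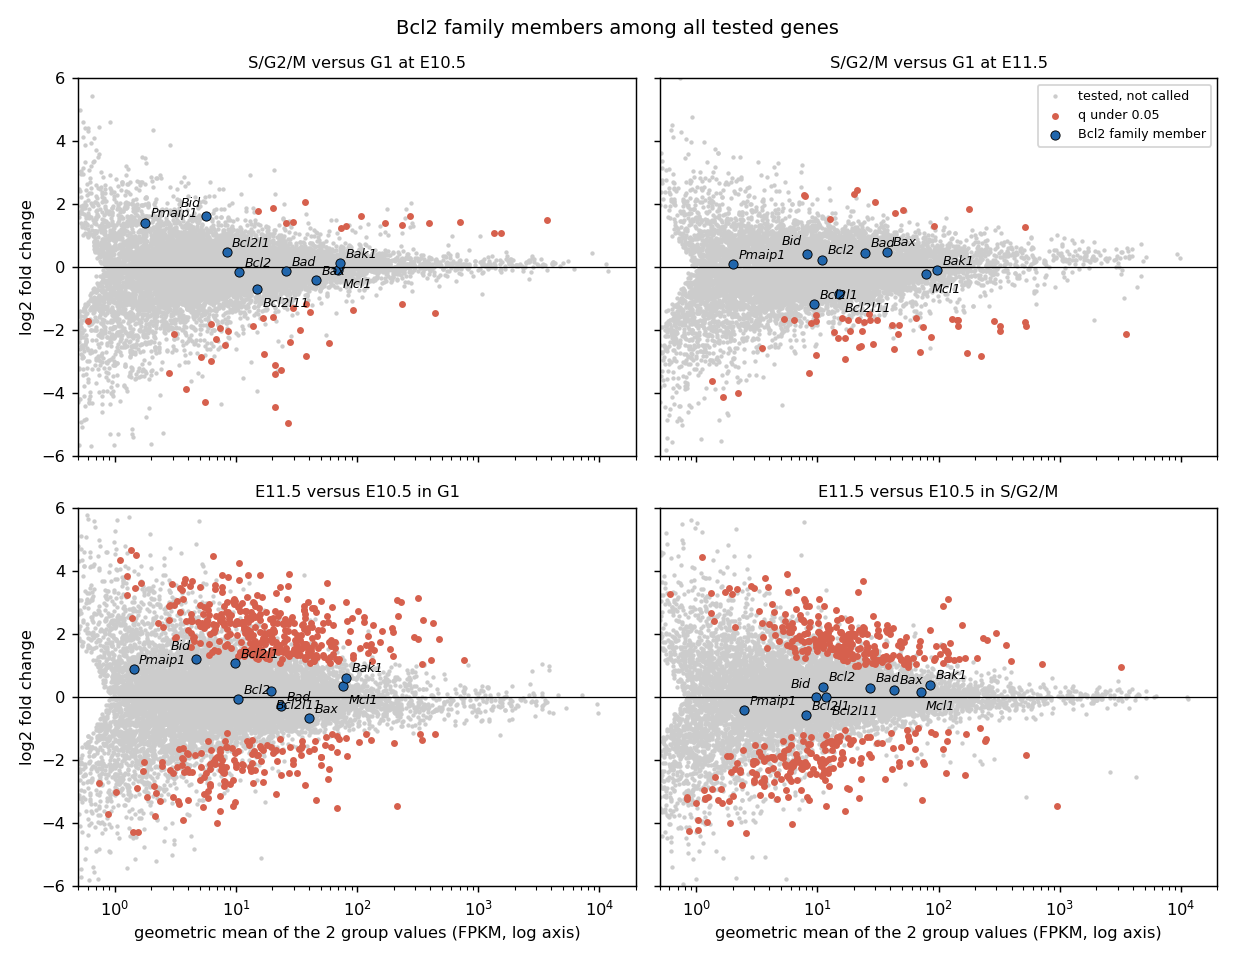
Log2 fold change against the geometric mean of the 2 group values in FPKM (log axis) for the genes the authors tested, in grey, with called genes in red and the Bcl2 family in blue; genes beyond the axis limits are not drawn. No family member is among the called genes; Bid at E10.5 lies at 3.10-fold, where the smallest called fold at its level was 3.46.

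Whether the phase difference itself changed between the ages was read as the E11.5 log2 fold minus the E10.5 log2 fold. The 2 age comparisons hold the same 4 groups and give nearly the same difference, so it is given once. It was -1.64 for Bcl2l1, with an interval of -4.64 to 1.36 from the deposited statistics and -3.41 to 0.13 from the deposited p-values. For Pmaip1 it was -1.30, and for Bid -1.22, with intervals of -4.43 to 1.98 and -3.02 to 0.57. Bax had the highest positive value, 0.91, with intervals of -1.51 to 3.33 and -0.51 to 2.33. For Bcl2l11 it was -0.17 (-2.25 to 1.91 and -1.36 to 1.03), and for Mcl1 -0.16. By either error, 0 of 9 intervals left out 0, and they are wide enough to hold differences of several fold.

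The shares of the 3 roles in the summed RNA of the 10 members were steady. The 10 genes summed to 261 FPKM in E10.5 G1, 252 in E10.5 S/G2/M, 292 in E11.5 G1 and 282 in E11.5 S/G2/M. Pro-survival genes made up 33.9%, 34.5%, 37.4% and 32.2% of these sums, effectors 46.7%, 45.7%, 45.0% and 49.1%, and BH3-only genes 19.4%, 19.7%, 17.6% and 18.6%. Mcl1 gave 77.2% to 80.0% of the summed RNA of Bcl2, Bcl2l1 and Mcl1 in each group. Other family genes were not in these sums, such as Bok at 18.4 to 30.2 FPKM and the pro-survival Bcl2a1b at 3.18 to 13.3. These shares are therefore not those of the whole family. Ratios of single genes varied more, across roles for Bax to Bcl2l1 and within the BH3-only genes for Bcl2l11 to Bid. The ratio of Bax to Bcl2l1 levels was 7.49 in E10.5 G1, 4.05 in E10.5 S/G2/M, 2.22 in E11.5 G1 and 7.04 in E11.5 S/G2/M, lowest where Bcl2l1 was highest and Bax lowest. The ratio of Bcl2l11 to Bid levels was 5.91 in E10.5 G1 and 2.88 in E11.5 G1, against 1.19 and 1.21 in the S/G2/M groups. These ratios of group values have no error and were not tested.

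Genes with the most similar pattern were sought among 6997 genes of at least 5 FPKM in every group, by the Euclidean distance between centred log2 levels over the 4 group values. For Bbc3, the member of widest range, they were Olfml3 at a distance of 0.20, Ctsd, which encodes cathepsin D, at 0.205, and Hexa, a lysosomal enzyme gene, at 0.213. Ctsd itself stood at 101, 78.1, 400.1 and 170.2 FPKM. For Bid, added after its values were seen, they were Ndc80, a kinetochore gene, at 0.174, Kif18b, a mitotic kinesin gene, at 0.242, and Ckap2l, a spindle gene, at 0.278. Ndc80 stood at 7.27, 26.7, 17.8 and 23.5 FPKM, low in E10.5 G1 as Bid was. A likeness over 4 group values is a description only.

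The other genes of the pathway were read from lists of 96 entries, of which 95 had a row. The counts below come from the authors' deposited Cuffdiff tables at a q-value under 0.05. Of the list genes tested, 0 of 82 were called between phases at E10.5, with 6 at an unadjusted p under 0.05. At E11.5, 1 of 86 rose in S/G2/M, 4 of 87 rose with age in G1 and 5 of 85 rose with age in S/G2/M, and 0 fell in these. Those are 1.16%, 4.60% and 5.88%, against 0.137%, 3.0% and 2.14% of all genes called in that direction. The lists were chosen with earlier results of these data known, so these shares are a description only.

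Among 15 further Bcl2 family genes found, none was called in any comparison, and the only unadjusted p under 0.05 was that of Bnip3, with a q-value of 0.132 for age in S/G2/M in the authors' deposited table. Bnip3l and Bok had the highest means over the 4 groups. Bnip3l, a mitophagy receptor gene, was listed at 63.3, 60.7, 52.7 and 39.5 FPKM, and Bok, a relative of Bax and Bak1, at 18.4, 23.4, 28.8 and 30.2. Bcl2a1b, of the pro-survival A1 genes, was at 3.18, 3.64, 13.3 and 8.01 FPKM, a value that is uncertain because near-identical copies share reads. Its q-values with age in the authors' deposited tables were 0.647 and 0.603.

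The 20 apoptosome and caspase genes, which act at or after the mitochondrial step, gave no call, with 2, 2, 1 and 0 at an unadjusted p under 0.05 by Cuffdiff. Vdac1 and Vdac2, channels of the outer mitochondrial membrane, had the highest means over the 4 groups, with levels at 146 to 168 and at 99.0 to 131 FPKM. The 7 genes of Mcl1 protein turnover gave no call either, with 0, 0, 1 and 0 at an unadjusted p under 0.05 by Cuffdiff. By the mean over the 4 groups, Gsk3b and Huwe1 were the highest of them. Gsk3b, a kinase that marks Mcl1 for breakdown, was at 43.6 to 68.6 FPKM, and Huwe1, a ubiquitin ligase for Mcl1, at 43.4 to 55.1.

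Of the 13 death receptor genes, 1 of 11 tested rose with age in G1 and 2 of 10 in S/G2/M, and none fell. Between phases 0 of 11 were called at either age, with 1 at an unadjusted p under 0.05 at each by Cuffdiff. Tnfrsf1b, a TNF receptor without a death domain, rose in G1 from 3.87 to 28.2 FPKM, 7.28-fold (q = 0.00273 in the authors' deposited table). In S/G2/M it rose from 3.46 to 12.7 FPKM, 3.68-fold (q = 0.00548 in the authors' deposited table). Casp8, the protease that cuts Bid, rose in S/G2/M from 15.2 to 41.6 FPKM, 2.74-fold, with q = 0.0265 in the authors' deposited table. Its level was 19.2 FPKM in E10.5 G1 and 39.4 in E11.5 G1, with q = 0.135 in the authors' deposited table. The list's median log2 fold change was 1.12 with age in G1 and 0.76 in S/G2/M, against 0.02 and 0.03 over all genes. The macrophage markers moved with these genes: 12 of 15 tested rose with age in G1 and 8 of 14 in S/G2/M, and their part in the result was not tested.

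Of 18 p53 pathway genes, 1 of 17 tested passed with age in G1, and none passed elsewhere by Cuffdiff. At an unadjusted p under 0.05 there were 2 and 3 between the phases, 3 with age in G1 and 2 with age in S/G2/M. Sesn1, a stress gene, rose in G1 from 16.3 to 42.1 FPKM, 2.58-fold, with q = 0.0381 in the authors' deposited table. Between phases, 13 of 17 genes at E10.5 and 12 of 16 at E11.5 were lower in S/G2/M, with median log2 fold changes of -0.32 and -0.42, while 52.7% and 53.9% of all genes were lower. Macrophage markers were lower in S/G2/M for 13 of 14 genes at E10.5 (0 called) and 15 of 15 at E11.5 (7 called), and neural markers for 7 of 8 (6 called) and 7 of 7 (1 called). Their part in the p53 list's values was not tested. Within the p53 list, Cdkn1a, the inhibitor that p53 uses to stop the cycle, was at 41.7 FPKM in E10.5 G1 and 18.8 in E10.5 S/G2/M, and at 52.3 and 21.0 at E11.5. The authors' deposited tables give q = 0.339 and q = 0.195 for these, so Cdkn1a did not pass. It was named after its values were seen. Trp53 RNA was at 224, 263, 280 and 280 FPKM.

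Of 22 survival signalling genes, such as receptors, kinases and factors that act upstream of the family, 1 of 21 tested rose in S/G2/M at E11.5, 2 of 21 rose with age in G1 and 3 of 21 with age in S/G2/M. At E10.5, 0 of 18 were called between phases, with 1 at an unadjusted p under 0.05 by Cuffdiff. The list's median log2 fold change with age was 0.71 in G1 and 0.81 in S/G2/M, in the direction in which the macrophage markers rose, and their part was not tested. Csf2rb, the shared beta chain of the IL-3 and GM-CSF receptors, rose in G1 from 6.31 to 27.2 FPKM, 4.31-fold, with q = 0.00273 in the authors' deposited table. Its near copy Csf2rb2 rose from 0.315 to 7.21 FPKM, with q = 0.0265 in the authors' deposited table, and the 2 may share reads. Flt3, a progenitor cytokine receptor, rose with age in S/G2/M from 0.557 to 6.12 FPKM, with q = 0.0213 in the authors' deposited table. Kit, also used for the sort, rose 2.38-fold from 12.6 FPKM there, with q = 0.0285 in the authors' deposited table, and was named after its values were seen. Foxo1 and Foxo3, whose factors bind the motif shown in the Bcl2l11 window, were at 14.7 to 22.5 and 19.8 to 28.6 FPKM. Their lowest q-values were 0.596 and 0.603 in the authors' deposited tables.

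**Figure D4:**
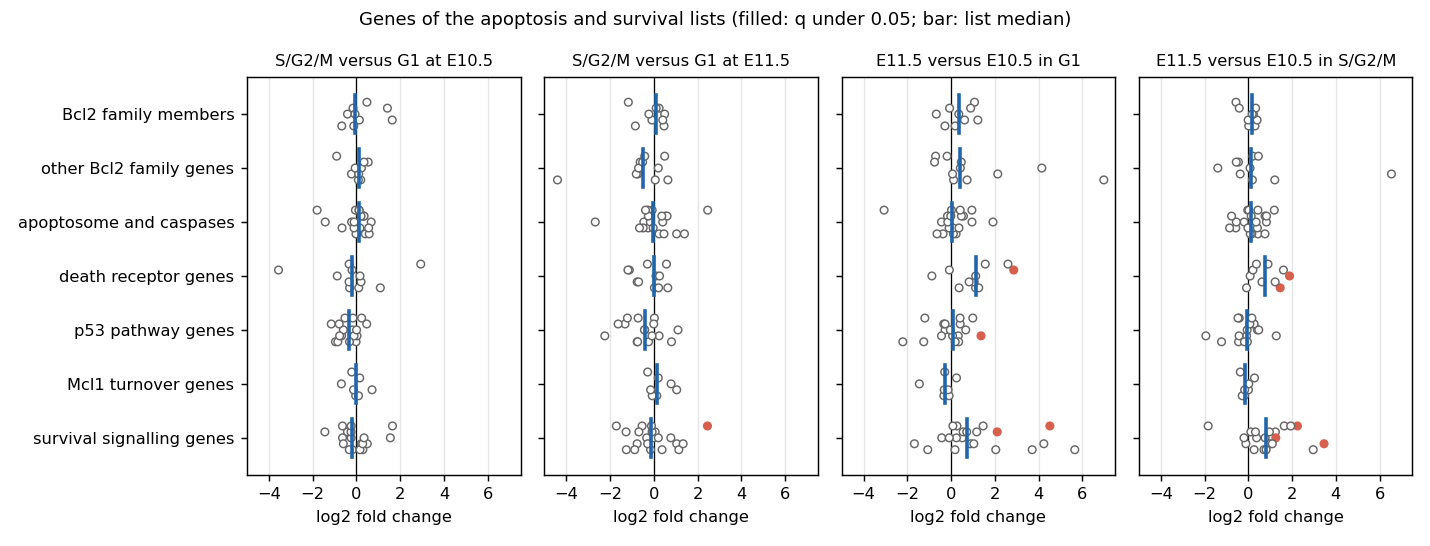
Log2 fold change of every tested gene of the Bcl2 family and of the 6 other lists in the 4 comparisons, 1 circle per gene (filled red where q was under 0.05), with a blue bar at each list's median. The Bcl2 family row holds no filled circle; filled circles are in the death receptor, p53 and survival signalling rows, all to the right of 0.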

How the data were processed

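RNA was sequenced as paired ends from 12 samples of sorted cells, and the submitters' processing notes name CASAVA 1.4, TopHat, Cuffdiff and the build mm10. Another aligner, bowtie 0.12.2, and another build stand in the labels' protocols, while deposited loci were on mm10 coordinates. The authors deposited FPKM values, 1 per group, with a test score, a q-value and the p-value behind it from Cuffdiff, per the file headers. The authors tested 12414 to 12984 genes per table. Whether that test took a group's 3 samples separately was not given in the sources used here. In the tables, the label G2 was read as S/G2/M. Groups were those of the labels, and the 4 comparisons were phase at each age and age in each phase.

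Folds were ratios of deposited FPKM values without a pseudocount. A Benjamini-Hochberg adjustment of the deposited p-values gave the deposited q-values. No test over samples could be run. Intervals treat the deposited p-value as a two-sided normal p and were added after the data were seen. The calculation was run on simulated folds whose p-values were normal by design, which checks the arithmetic only. It cannot tell whether the deposited p-values have that form. The members and lists were chosen with earlier results of these data known. All members were named in each comparison, from each pathway list up to 4 called genes of at least 1 FPKM or else the 2 most abundant, and the 3 genes nearest in pattern to the member of widest range; other names were chosen after their values were seen. A gene of the survival signalling list is counted but not reported here by name. Alternatives were q thresholds of 0.01 and 0.085, an FPKM minimum of 1, a pseudocount of 1, median scaling, summed rows and the tables in the other order. Python 3.11.15, numpy 2.4.6, pandas 2.3.3, scipy 1.17.1 and matplotlib 3.10.9 were used.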

Additional observations from a re-analysis of the deposited data

How the results depend on the processing

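No member was called under any q threshold or filter tried in the 4 comparisons, or in the tables of the other order, which were read for the 2 phase comparisons. The lowest q-value of a member in the authors' deposited Cuffdiff tables was 0.387, so the thresholds of 0.01 and 0.085 could not have called any. Of 140 member folds under the alternatives, 139 kept their sign. The 40 with a pseudocount could not change sign, nor could the 40 with summed rows, since each member has 1 row. The exception was Bcl2l11 with age in S/G2/M, at 0.01 on the log2 scale and at -0.027 after median scaling. Pathway list genes called went from 1 to 0 for the E11.5 phases at a q threshold of 0.01, where the smallest q in the table was 0.0102 and no gene could pass. With age in G1 they went from 4 to 2 at 0.01, and with age in S/G2/M from 5 to 2 at 0.01 and to 8 at 0.085. Setting the median of genes with at least 1 FPKM in both groups to 0 moved folds by at most 0.04. No paired analysis was possible because the tables hold 1 value per group, and for the same reason no sample could be left out. The depth is unknown, and Bbc3, under 1 FPKM in every group, was not tested by the authors.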

Other observations

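The deposited p-values were smaller than the deposited statistics would give if read as normal scores. The normal p was within 1.5 times the deposited p for 58.0% of genes in the E10.5 phase table, 53.3% in the E11.5 phase table, 47.0% for age in G1 and 49.7% for age in S/G2/M. The median ratio of the normal to the deposited p was 1.33, 1.42, 1.499 and 1.45 in these tables. For Bid between the phases at E10.5, the error of the log2 fold change was 0.68 from the p-value and 1.22 from the statistic.

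Cycs, the gene of the cytochrome c that Bax and Bak1 release, was at 47.8 FPKM in E10.5 G1 and 71.5 in E10.5 S/G2/M, and at 35.2 in E11.5 G1 and 72.6 in E11.5 S/G2/M. Both S/G2/M values lay above both G1 values. The authors' deposited tables give p = 0.0373 (q = 0.675) and p = 0.0038 (q = 0.221), so Cycs did not pass at either age. It was chosen after its values were seen. Macrophage markers were lower in S/G2/M for 13 of 14 genes at E10.5 and 15 of 15 at E11.5. Neural markers were lower for 7 of 8 and 7 of 7, and the part of these markers in the Cycs values was not tested.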
